A study of Mus musculus with 11 samples.

Results

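The cells described here are 86 wells of adult mouse testis germ cells with the highest summed level of 6 X-linked genes: Ccnb3, Pet2, Nxt2, Mtcp1, Fmr1nb and Ap1s2. They were picked from 1228 wells that held at least 3000 unique molecular identifiers (UMIs, random tags that mark original RNA molecules), out of 1920 wells in all. The score of a well was the mean over the 6 genes of the natural logarithm of 1 plus UMIs per 10000, and the top 7% of kept wells within each animal were taken, which gave 33 of 475 wells in mouse 1, 19 of 273 in mouse 2 and 34 of 480 in mouse 3. The working label for such wells was zygotene spermatocytes with little RNA, and it is checked below.

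The study concerns the order in which X-linked and Y-linked genes turn on around meiotic entry in male germ cells. It used 3 untreated adult Dazl-GFP mice, a reporter line in which green fluorescent protein follows Dazl, a germ cell gene, and live GFP-positive testis cells were sorted singly into wells for SORT-Seq, which counts the 3' ends of polyadenylated RNA. Mouse 1 gave 8 CEL-Seq1 libraries of 96 wells, mouse 2 a CEL-Seq2 library of 384 wells and mouse 3 a pair of CEL-Seq2 libraries of 384 wells each, so that protocol and mouse 1 cannot be told apart. Cells were index-sorted, with fluorescence recorded for each well, except in a library of mouse 3 that was sorted by a gate. The labels used here give no strain and no age other than adult, and the replicate is the mouse (n = 3).

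In the first meiotic prophase the chromosomes are cut by SPO11 in leptotene, homologues find each other and begin to be joined by the synaptonemal complex in zygotene, and are joined along their length in pachytene. The X and Y share only a short region of homology, and genes on both are shut down at the start of pachytene in meiotic sex chromosome inactivation. Zygotene is therefore the last stage before silencing at which X-linked genes can be read in large numbers.

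In members the 6 genes that chose them stood far above their level in the rest, which is a description of the choice and no result. Ccnb3, which encodes a B-type cyclin of meiotic prophase, was at 364, 364 and 259 UMIs per 1000000 autosomal UMIs (CPM) in members of mice 1, 2 and 3, against 7.78, 9.84 and 6.94 in all other kept wells. Pet2 was the most abundant of the 6, at 1141, 648 and 725 CPM against 39.0, 33.0 and 24.1. Nxt2, a cofactor of mRNA export, was at 254, 415 and 279 CPM against 6.96, 15.1 and 8.39. Mtcp1, of the family of AKT kinase co-activators that includes Tcl1, was the lowest, at 119, 131 and 141 CPM against 4.52, 6.19 and 4.34, and its locus overlaps Cmc4, so reads of these genes may have been shared. Fmr1nb, a testis antigen gene beside Fmr1, was at 551, 489 and 604 CPM against 54.3, 74.7 and 47.7. Ap1s2, a subunit of the AP-1 clathrin adaptor, was at 321, 494 and 377 CPM against 11.7, 23.0 and 14.8. For all 6 genes every mouse was higher in members, and the groups did not overlap.

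**Figure D1:**
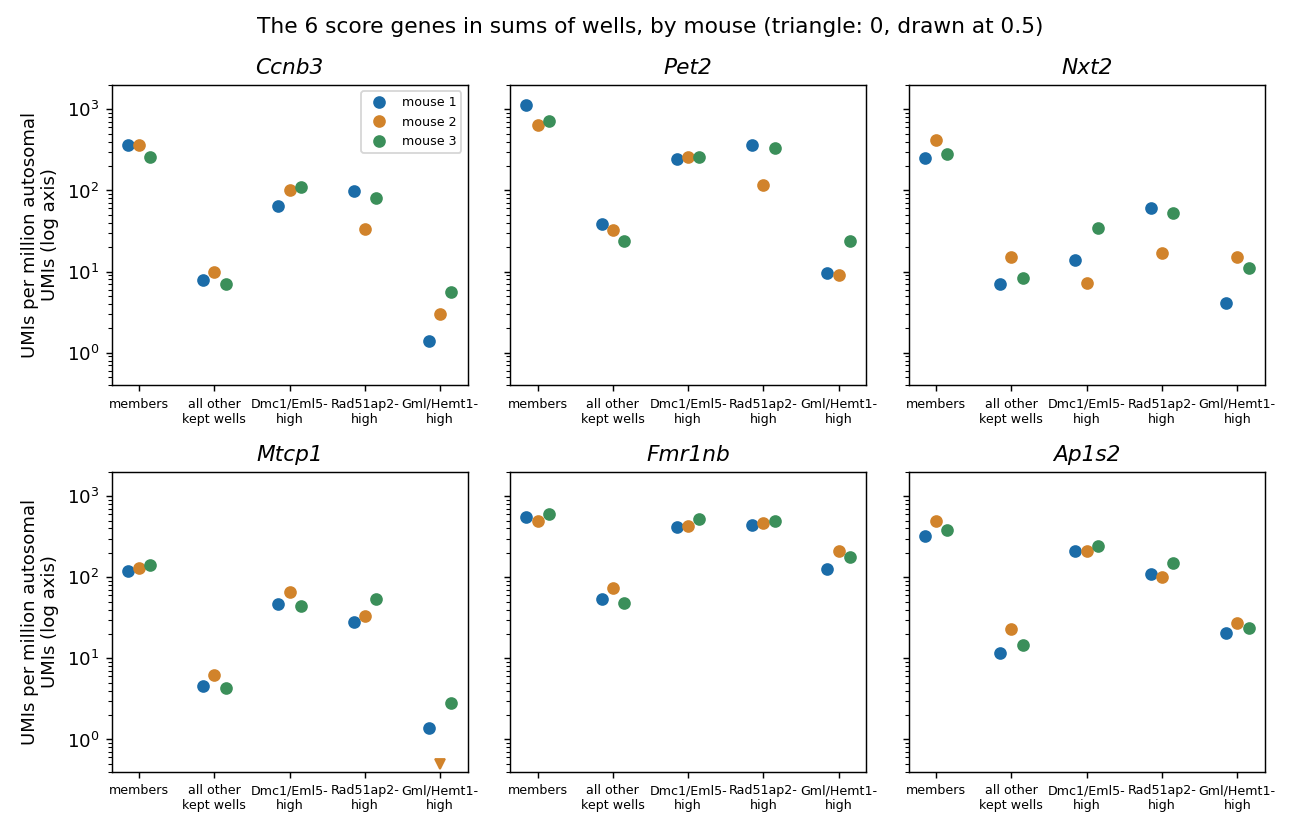
Level of the 6 score genes (UMIs per 1000000 autosomal UMIs, log axis) in members, all other kept wells and the neighbouring sets of wells, with a point for each mouse. Ccnb3 lies between 259 and 364 in members and between 6.94 and 9.84 in the other wells.

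Members formed the end of a continuous score and not a separate cloud. The lowest member and the highest other well scored 1.26 and 1.23 in mouse 1, 1.13 and 1.13 in mouse 2, and 1.19 and 1.19 in mouse 3. The median member scored 1.39, 1.40 and 1.35 in mice 1, 2 and 3, and the median other well 0.132, 0.187 and 0.110. Within 0.1 of the limit lay 19 other wells below and 29 members above. All 6 genes had a UMI in 47 members, 5 genes in 30, 4 genes in 8, and 3 or fewer in 1, while 13 other wells had all 6 and 271 had none. Ccnb3 alone had at least 1 UMI in 90.9% of members of mouse 1, all members of mouse 2 and 82.4% of those of mouse 3, and in 16.5%, 13.8% and 17.3% of the other wells, which were deeper. After each well was thinned to 3000 UMIs these shares were 66.7%, 63.2% and 52.9% against 5.66%, 6.69% and 4.71%.

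The 6 genes lie far apart on the X chromosome, 3 on each strand. In GRCm38, Ccnb3 spans chrX:6979652-7041619 on the minus strand, Fmr1nb chrX:68761839-68804567 on the plus strand, Mtcp1 chrX:75410444-75416588 (minus), Pet2 chrX:89403848-89409689 (minus), Nxt2 chrX:142226770-142239692 (plus) and Ap1s2 chrX:163909017-163933666 (plus). The closest pair is 6.61 Mb apart and the 6 genes span 157 Mb.

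Because these genes are high in the same wells, the 250 bases before their start sites were read from RefSeq (GRCm38.p6), in which 5 of the 6 genes matched. Shown are Ccnb3, the cyclin in the label, Fmr1nb, which shares 1 motif with it, and Ap1s2, whose promoter differs most from both. Capitals mark any of 5 motifs searched on both strands. The first was the E-box CACGTG, which reads the same on both strands. The next was the cyclic AMP response element TGACGTCA. A further one was CCTCAG, the core of the motif reported for the meiotic inducer STRA8, which on the other strand reads CTGAGG. The remaining ones were the CCAAT box, which on the other strand reads ATTGG, and the TATA box TATAAA.
Ccnb3, chrX:7041620-7041869, minus strand: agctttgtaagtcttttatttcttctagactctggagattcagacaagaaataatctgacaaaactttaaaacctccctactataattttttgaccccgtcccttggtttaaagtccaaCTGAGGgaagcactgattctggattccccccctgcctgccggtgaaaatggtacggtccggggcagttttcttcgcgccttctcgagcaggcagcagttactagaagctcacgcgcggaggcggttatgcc
Fmr1nb, chrX:68761589-68761838, plus strand: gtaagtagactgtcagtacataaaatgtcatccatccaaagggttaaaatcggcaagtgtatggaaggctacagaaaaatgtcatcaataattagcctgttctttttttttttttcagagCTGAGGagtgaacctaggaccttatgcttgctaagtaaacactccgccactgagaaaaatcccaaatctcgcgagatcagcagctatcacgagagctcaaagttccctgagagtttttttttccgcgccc
Ap1s2, chrX:163908767-163909016, plus strand: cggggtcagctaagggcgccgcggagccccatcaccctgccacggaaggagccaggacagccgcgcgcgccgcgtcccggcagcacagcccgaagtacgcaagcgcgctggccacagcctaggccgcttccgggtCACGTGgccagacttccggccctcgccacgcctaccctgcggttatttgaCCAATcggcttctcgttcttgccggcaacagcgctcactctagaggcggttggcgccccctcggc
The Ccnb3 and Fmr1nb windows each hold CCTCAG once, a motif present in 22.4% of 32817 RefSeq promoter windows of the same length and in 24.4% of the 1220 on X. Ap1s2 holds CACGTG (6.02% of all windows) and CCAAT (33.8%), Nxt2 holds CCAAT in 1 of its windows, and the Mtcp1 window has none of the 5. No motif is in all of the matched windows. GC content ran from 39.6% in the second Nxt2 window and 41.6% for Fmr1nb to 70.0% for Ap1s2, against a median of 50.2% on X. The observed over expected CpG ratio was 0.767 for Ccnb3, 0.648 for Fmr1nb, 0.762 for Mtcp1, 0.652 and 0.566 for Nxt2 and 0.994 for Ap1s2, each above the median of 0.343 over X windows. These matches are descriptions of letters, not of binding.

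The median member held less RNA than the median of the other kept wells. Median UMIs per well were 8840, 7846 and 8094 in members of mice 1, 2 and 3, and 24526, 13661 and 21664 in the other kept wells. Against the ERCC spike-ins, synthetic RNAs added in equal amount to each well, members had 47.0, 17.2 and 12.6 UMIs per ERCC UMI and the others 124.7, 32.0 and 29.6. The median was lower in members of every mouse, by 2.27-fold (log2 difference -1.18 ± 0.26, SD, n = 3 mice). The exact paired permutation test over 3 mice gave p = 0.25 (two-sided), the smallest it allows. Members themselves ranged from 3391 to 33235 UMIs in mouse 1, from 3048 to 23364 in mouse 2 and from 3617 to 26099 in mouse 3, so some held more RNA than the median other well.

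For comparison, 3 neighbouring sets of wells were taken by the same top 7% rule from other genes, leaving out members and giving a well in more than 1 set to the set where it ranked highest: 67 wells high in Dmc1 and Eml5 (a leptotene pair), 54 wells high in Rad51ap2 and 82 wells high in Gml and Hemt1 (an early pachytene pair). Of the 86 top wells for Dmc1 and Eml5, 15 were also members, as were 20 of 86 for Rad51ap2 and 0 of 86 for Gml and Hemt1, and a further 4, 12 and 4 wells went to another set. In UMIs per ERCC UMI, members differed by 0.01 ± 0.18 on the log2 scale (SD, n = 3) from the Dmc1 and Eml5-high wells and by -0.01 ± 0.09 from the Rad51ap2-high wells, both within the spread between mice. They lay below the Gml and Hemt1-high wells by -1.11 ± 0.39. Low RNA content was thus seen against the pool of all kept wells and the Gml and Hemt1-high wells, and not beyond the spread between mice against the other sets.

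**Figure D2:**
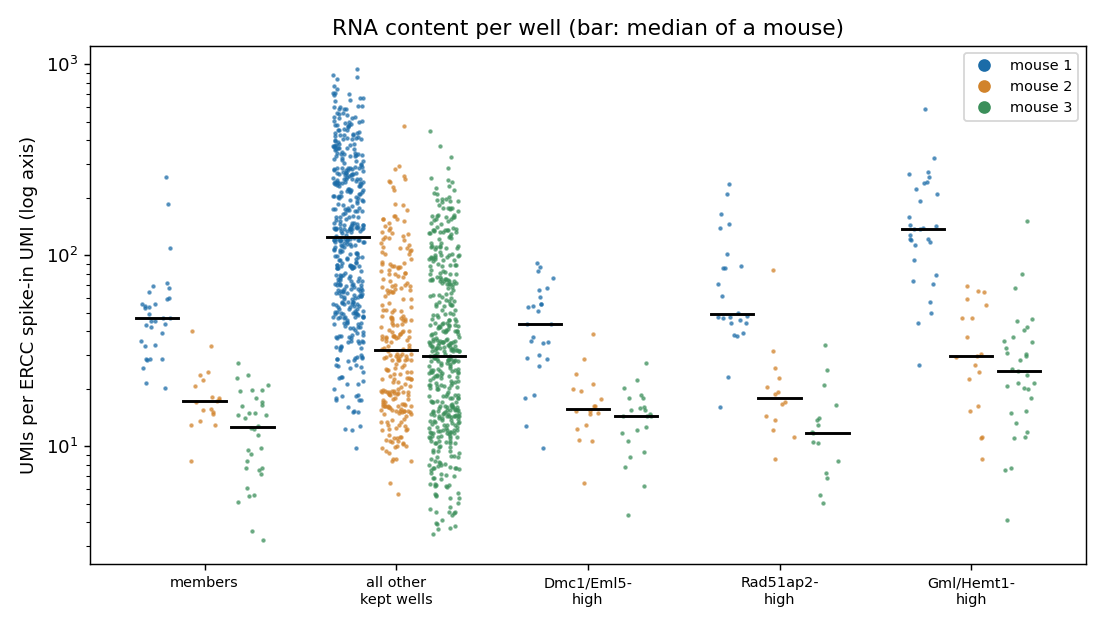
UMIs per ERCC spike-in UMI (log axis) in each kept well, by group and mouse, with a bar at the median of each mouse. Medians of members are 47.0, 17.2 and 12.6, near those of the Dmc1 and Eml5-high and Rad51ap2-high wells and below those of all other wells.

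Mitochondrial RNA took a larger share in members, 10.3%, 15.9% and 16.5% of UMIs against 4.37%, 10.7% and 9.34% in the other wells. Per ERCC UMI it was lower in members, by -0.60 ± 0.16 on the log2 scale (SD, n = 3). The Dmc1 and Eml5-high wells had a like share (log2 difference 0.03 ± 0.01). Members also had fewer genes per well, 3816, 3456 and 3532.5 against 6129, 4737 and 5844. In the gate-sorted library of mouse 3, 10 of 267 kept wells were members (3.75%, exact 95% interval 1.81 to 6.78), and in its index-sorted library 24 of 213 (11.3%, 7.35 to 16.3), with intervals for counting error only.

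Autosomal genes did not enter the score except through the UMI total of a well, and were compared first with all other kept wells. Counts were summed over wells by mouse and group, which weights wells by their UMIs, so that RNA-rich cells fill most of the pool of others. Of 10915 autosomal genes tested, 1871 were higher in members (17.1%) and 2905 lower (26.6%), 43.8% in either direction, at an adjusted p under 0.05 in edgeR's quasi-likelihood test with the mouse as block and Benjamini-Hochberg adjustment. These are differences in a gene's share of autosomal RNA. Scaled to ERCC UMIs the median of all genes moved from -0.21 to -1.94 on the log2 scale and 49 genes were called higher. Most of the 1871 genes were thus called higher relative to other RNA and not relative to the spike-ins. Of 108 values for named genes over all comparisons, 82 kept direction and call on the ERCC scale, 9 lost the call and 17 reversed. Without the gate-sorted library 1835 genes were higher and 2659 lower.

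At 100 CPM or more in the higher group, the largest rises included recombination genes of meiosis and genes of cell adhesion and antigen presentation. A330049N07Rik, a long intergenic noncoding RNA on chromosome 10 (chr10:72973303-73086705, minus strand), was at 211, 347 and 69.1 CPM in members of mice 1, 2 and 3 and at 18.9, 18.0 and 3.82 in the others. Every mouse was higher and the log2 difference was 3.89 (SE 0.27, edgeR adjusted p = 1.439e-17). Rad51ap2, a gene of meiotic recombination, was at 315, 312 and 265 CPM against 39.8, 39.5 and 19.7 (log2 3.20, SE 0.20, edgeR adjusted p = 1.438e-19). Dmc1, the meiosis-specific recombinase, was at 529, 347 and 872 CPM against 67.5, 109.7 and 75.9 (log2 2.79, SE 0.19, edgeR adjusted p = 4.035e-18). Prss50, a testis serine protease gene, was at 492, 773 and 956 CPM against 54.3, 193 and 98.8 (log2 2.81, SE 0.16). Sdk1, an immunoglobulin-type adhesion molecule, was at 88.7, 62.5 and 155 CPM against 6.15, 14.8 and 8.39 (log2 3.51, SE 0.36).

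The other named genes with the largest rises were Alcam and Nptx2, which encode an adhesion molecule and a pentraxin, Ccdc152, Trim52, Pts of tetrahydrobiopterin synthesis, Pdlim5, Dip2c, Pdss1 of coenzyme Q synthesis, and the class I histocompatibility genes H2-D1 and H2-K1. H2-K1 (chr17:33996017-34000347, minus strand) was at 1006, 773 and 1287 CPM in members against 128, 179 and 157 (log2 2.70, SE 0.14, edgeR adjusted p = 9.047e-22). H2-D1 was at 489 ± 167 CPM (SD, n = 3) against 79.4 ± 48.4, but the class I genes are near copies and their reads may have been split. Trim52 was at 394 ± 42 CPM against 56.4 ± 5.9, and Nptx2 at 200.5 ± 18.6 against 29.0 ± 10.1. Ccdc152 was at 134 ± 18 CPM against 18.4 ± 5.2, and it overlaps another gene, so without knowledge of strand use its reads are uncertain. In all 15 the mice did not overlap between groups, which the choice of large rises with the same direction in 3 mice favours.

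The 15 named genes with the largest falls were nearly silent in members, on 7 to 43 UMIs each over all 86 wells. Dmrt1, a transcription factor of spermatogonia, was at 9.18, 22.7 and 5.76 CPM in members against 109, 213 and 172 in the others (log2 -3.91, SE 0.34, edgeR adjusted p = 6.05e-14). Morc2b was at 6.12, 11.4 and 8.64 CPM against 153, 145 and 151 (log2 -4.22, SE 0.36). Ccdc39, Ttc18 (also called Cfap70), Spag6, Zmynd10 and Ccdc113, all known from the building of motile cilia and flagella, differed by -3.68, -3.62, -3.49, -3.48 and -3.44 on the log2 scale. Spata16 and Tex40, genes of the later acrosome and sperm tail, differed by -3.58 and -3.56. Mroh4 kept the most counts, at 52.9 ± 27.3 CPM against 504 ± 146 (log2 -3.39, SE 0.21). Gm8267, 1700074P13Rik, Smpd5, 4930525D18Rik and Dnahc7a complete the 15, with log2 differences from -4.47 (Gm8267) to -3.36 (Dnahc7a). Gm8267 and Dnahc7a have near-identical copies, and Dnahc7a had 33.6 CPM in members of mouse 1 and 0 in the other mice.

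**Figure D3:**
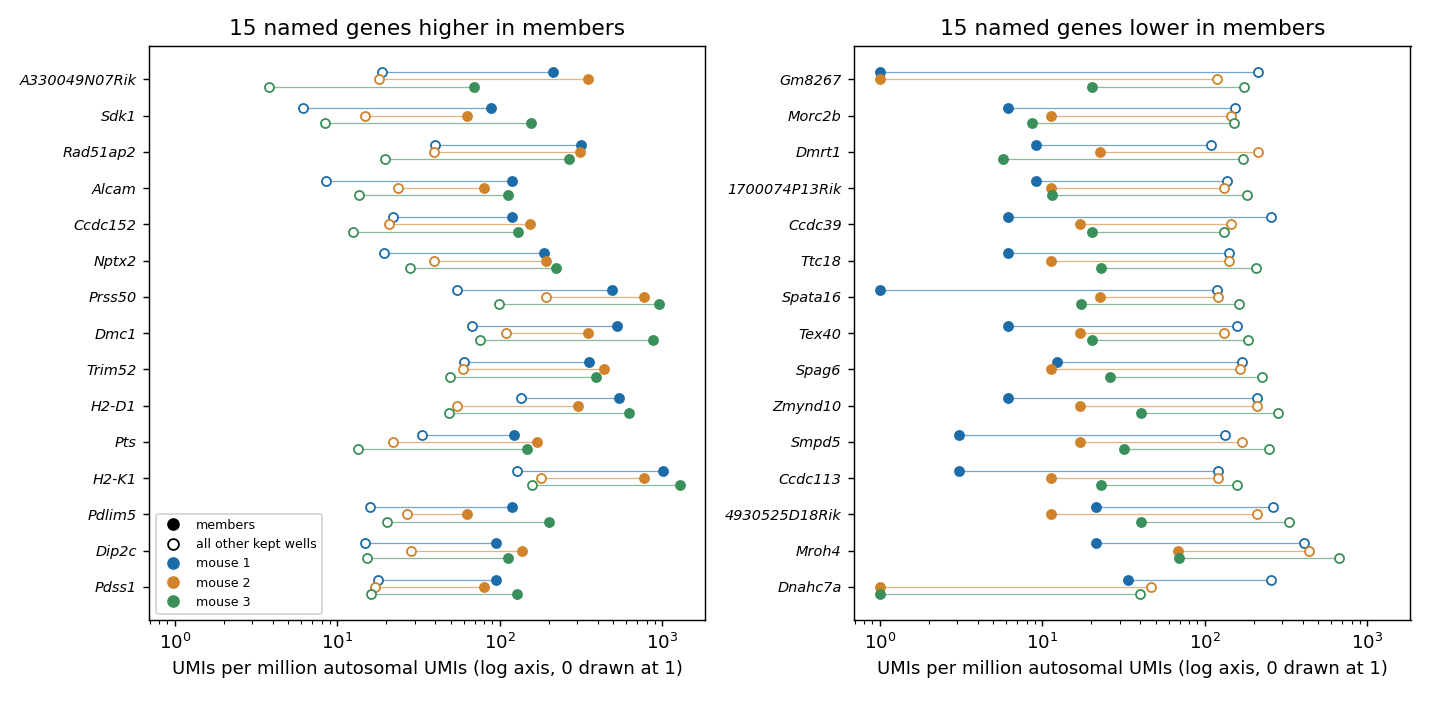
UMIs per 1000000 autosomal UMIs (log axis, 0 drawn at 1) in members (filled) and all other kept wells (open) for the 15 named genes with the largest rise and the 15 with the largest fall, with a line for each mouse. The filled and open points of a gene do not overlap across mice, as for Dmrt1 with 5.76 to 22.7 in members and 109 to 213 in the others. The genes were chosen for large differences with the same direction in all mice, which favours this.

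Compared with all other kept wells, markers of leptotene and zygotene were higher in members and markers of the stages on either side were lower. Of 14 leptotene and zygotene markers, 11 were higher and 1 lower, with a median log2 difference of 1.18 where the median of all genes was -0.21. Of 17 pachytene markers, 0 were higher and 14 lower (median -2.13). Differentiating spermatogonia markers had 1 higher and 10 lower of 11 (median -2.55), and undifferentiated spermatogonia markers 0 higher and 5 lower of 7 tested (median -2.79). Zbtb16, a stem and progenitor factor, had no UMI in members, at most 3.53 CPM by a limit of 3 counts over all members, against 13.4 ± 1.9 CPM in the others (at least 3.80-fold lower). The marker lists overlap the genes known from earlier results of these data and are a description of the wells. They hold leptotene and zygotene genes together and do not divide these stages. The leptotene and zygotene list had 4 higher and 4 lower of 11 (median 0.0) against the Dmc1 and Eml5-high wells. It had 2 higher and 2 lower of 13 (median 0.3) against the Rad51ap2-high wells. Set against the Gml and Hemt1-high wells it had 9 higher and 3 lower of 13 (median 1.1). Much of the rise in this list was thus shared with the Dmc1 and Eml5-high and the Rad51ap2-high wells.

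The synaptonemal complex list had 7 genes higher and 1 lower of 10 (median 1.03). Sycp1, the transverse filament protein, was at 4138, 4721 and 3584 CPM in members against 1392, 1404 and 1113 (log2 1.63, SE 0.11, edgeR adjusted p = 5.301e-18). Sycp3, of the lateral element, was at 3160, 4959 and 3805 CPM against 1054, 1377 and 1092 (log2 1.71, SE 0.11). The central element gene 4930447C04Rik (Six6os1) was at 605 ± 57 CPM against 143 ± 29 (log2 2.07), and Hormad1, an axis protein, at 867 ± 192 against 460 ± 19 (log2 0.85). Syce1, a central element protein, was the one that fell, from 401 ± 49 CPM in the others to 201 ± 48 (log2 -1.03, SE 0.16, edgeR adjusted p = 2.632e-07). Scaled to ERCC UMIs, Sycp1 and Hormad1 turned to -0.07 and -0.85. Of 6 cohesin genes tested, Smc1b (log2 1.01) and Smc3 (1.20) were higher, which turned to -0.70 and -0.55 on the ERCC scale, and Rad21 (-0.70) and Rec8 were lower. Rec8 had no UMI in members, against 6.65 ± 4.83 CPM in the others, on 196 UMIs. By a limit of 3 counts over all members pooled it was at least 1.88-fold lower, and its level in members is not resolved.

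Genes for making double-strand breaks were higher in 5 of 7 tested, with 0 lower (median 0.90). Spo11, which cuts the DNA, was at 187, 233 and 265 CPM in members against 119, 87.4 and 146 (log2 0.90, SE 0.18, edgeR adjusted p = 3.562e-05). Prdm9, which marks the hotspots, was at 147, 85.2 and 161 CPM against 24.3, 54.7 and 30.2 (log2 2.0, SE 0.26, edgeR adjusted p = 1.032e-08). Gm960 (Top6bl), the partner subunit of SPO11, was at 30.6, 96.6 and 121 CPM against 2.13, 10.9 and 14.3 (log2 3.23, SE 0.38). In each of these genes every mouse was higher and the groups did not overlap. Zcwpw1, a reader of the PRDM9 marks, was at 149 ± 118 CPM against 56.2 ± 35.1 (log2 1.36), with overlap between groups. On the ERCC scale Spo11 and Zcwpw1 turned to -0.81 and -0.38.

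Of 20 strand exchange genes 5 were higher and 4 lower (median -0.22), near the 17.1% and 26.6% of all genes and their median of -0.21. Meiob, a single-strand DNA binding protein of meiosis, was at 428, 568 and 440 CPM against 88.6, 113 and 61.4 (log2 2.45, SE 0.15, edgeR adjusted p = 5.308e-19), and Brca2, a homologous recombination gene, at 421 ± 36 against 194 ± 36 (log2 1.12, or -0.60 on the ERCC scale). Rpa1 and Psmc3ip were lower, with log2 differences of -1.44 and -1.28. Of 10 crossover maturation genes 3 were higher and 2 lower, and the helicase Hfm1 was at 564 ± 137 CPM against 230 ± 28 (log2 1.25, or -0.46 on the ERCC scale) and Msh5 at 68.1 ± 16.0 against 16.7 ± 5.2 (log2 2.10). Of 9 telomere attachment genes 3 were higher and 1 lower, with Ccdc79 (Terb1) at 209 ± 49 CPM against 79.1 ± 9.6 (log2 1.39, or -0.35 on the ERCC scale).

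Genes of meiotic entry were split, and piRNA and pachytene genes were lower. Stra8, the retinoic acid-induced inducer of meiosis, was at 24.5, 68.2 and 69.1 CPM in members and 86.8, 223 and 146 in the others (log2 -1.49, SE 0.24, edgeR adjusted p = 9.063e-07). Dazl, the reporter's gene, was at 3068 ± 304 CPM against 1211 ± 230 (log2 1.32, or -0.38 on the ERCC scale). Of 16 piRNA pathway genes 13 were lower and 2 higher (median -1.06). Piwil1, a pachytene PIWI protein, fell to 244 ± 119 CPM from 1524 ± 447 (log2 -2.72, SE 0.15). Ldhc, the testis lactate dehydrogenase, was at 119, 256 and 429 CPM against 1217, 1739 and 2678 (log2 -2.91, SE 0.14). Of 14 S phase genes 1 was higher and 6 lower, and of 14 M phase genes 4 were higher and 4 lower. Bub1, a checkpoint kinase, was at 598 ± 97 CPM against 182 ± 24 (log2 1.70, or -0.02 on the ERCC scale). Of 11 autosomal genes of sex chromosome silencing 4 were higher and 3 lower, with Atr (log2 0.75) and Topbp1 (0.75) higher, or -0.95 and -0.96 on the ERCC scale, and Ehmt2, a histone H3 lysine 9 methyltransferase, lower (-2.26).

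Markers of other testis cells were read in the same sums. Over their lists, Leydig markers were at 5.68 to 18.4 CPM in the 3 mice, peritubular markers at 3.06 to 8.63 and blood and endothelial markers at 0.0. Insl3, Cyp11a1, Ptprc, Pecam1 and Amh had no UMI in members, but were also under the limit of 3.53 CPM in the others. Sertoli markers summed to 30.6 to 173 CPM in members against 37.8 to 61.4 in the others, with 1 of 5 tested higher and 0 lower (median log2 0.92). The higher one was Cldn11 (log2 1.89, edgeR adjusted p = 0.02839), on 13 UMIs in members, 12 of them from mouse 3, and with reads in place of UMIs it turned to -0.24. Spermatid markers summed to 79.5 to 345 CPM, against 54.0 to 244 in the others, and 2 of 7 tested were higher and 0 lower. Their part in the results was not tested.

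Because all other wells are mostly RNA-rich, members were also set against the 315 other wells of 3000 to 10000 UMIs. Of 6985 autosomal genes tested, 434 were higher (6.21%) and 715 lower (10.2%), 16.4% in either direction. The synaptonemal complex list kept 6 higher and 1 lower of 9 (median 0.66) and the leptotene and zygotene markers 7 higher and 1 lower of 13 (median 0.60). Double-strand break genes had 2 higher and 1 lower of 7 (median -0.02), cohesin genes 0 higher and 1 lower of 5, strand exchange genes 3 higher and 3 lower of 19, and piRNA genes 1 higher and 3 lower of 13. The median of all genes was -0.06. Spo11 rose by 1.36 (SE 0.21, edgeR adjusted p = 0.0009598), Meiob by 1.24, Sycp1 by 1.09 and Gm960 by 2.03, and Stra8 fell by 3.33 on the log2 scale (SE 0.21, edgeR adjusted p = 5.739e-07). Prdm9, Smc3 and Zcwpw1 turned to -0.02, -0.19 and -0.01 with no call. Calls were also lost for Brca2 (0.38), Msh5 (0.44), Dazl (0.30), Smc1b (0.38), Mki67 (0.12), Rpa1 (-0.75), Psmc3ip (-0.11), Psma8 (-0.49), Hspa2 (-0.39), Id4 (-1.0) and Sohlh2 (0.26). Pachytene markers had 0 higher and 4 lower of 12 (median -0.43), and both spermatid markers tested were lower. Of the 15 named genes with the largest rises 12 kept their call, without Alcam, Dip2c and Pdlim5, and of the 15 with the largest falls 9 of the 10 that could be tested did, without Dnahc7a.

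**Figure D4:**
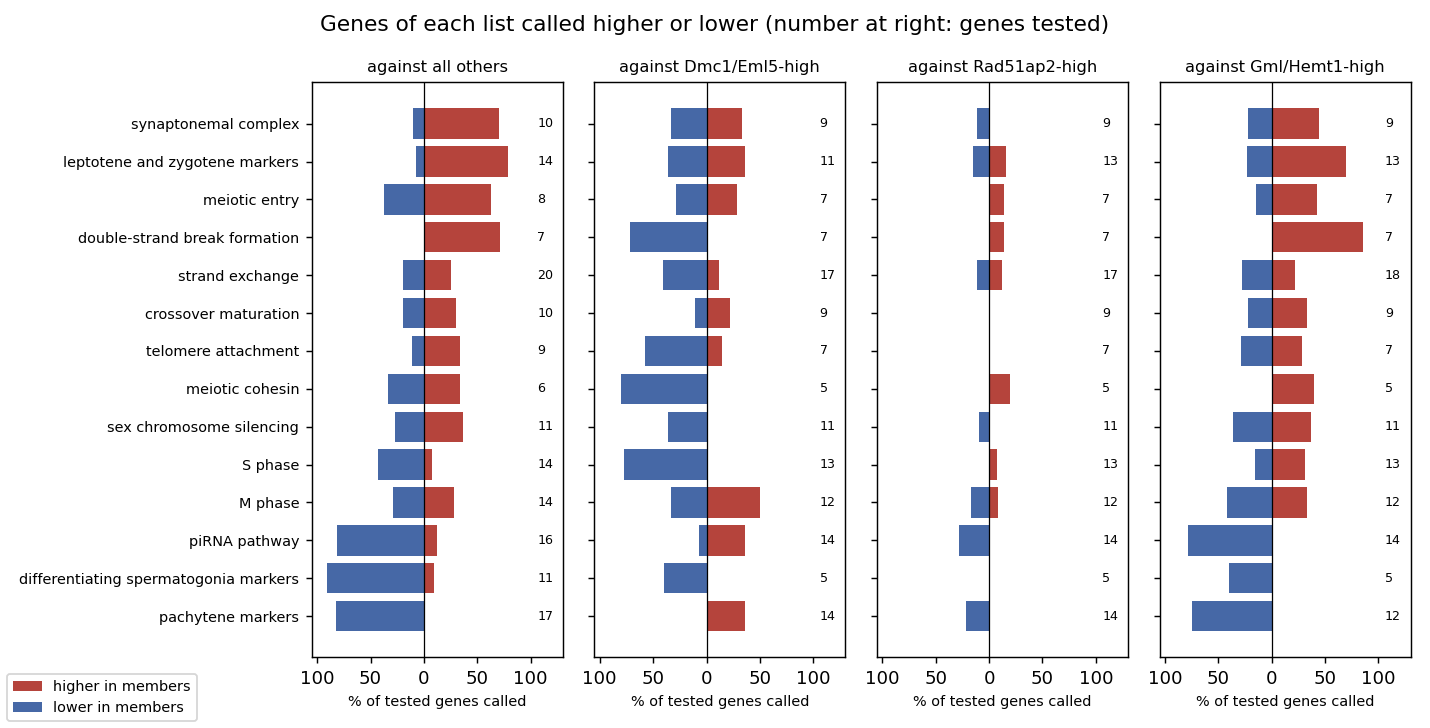
Share of the tested genes of each list called higher (right) or lower (left) in members, against all other kept wells and against each neighbouring set, with the number of genes tested at the right. Double-strand break genes are higher in 5 of 7 against all others and lower in 5 of 7 against the Dmc1 and Eml5-high wells.

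The next comparisons set members beside the neighbouring sets, fitted together as 12 sums. They share the members' sums, and the genes that chose a set were not tested against it. Against the Dmc1 and Eml5-high wells, 847 of 6402 autosomal genes were higher in members (13.2%) and 1144 lower (17.9%), 31.1% in either direction. Stra8 was at 53.9 ± 25.5 CPM in members and 1081 ± 188 in those wells (log2 -4.53, SE 0.30, edgeR adjusted p = 1.053e-13). Of the 7 double-strand break genes 0 were higher and 5 lower (median -1.74): Prdm9 at 131 ± 40 CPM against 489 ± 171 (log2 -1.87, SE 0.23, edgeR adjusted p = 1.586e-07), Mei1 (-2.83), Mei4 (-1.74), Ccdc36, also called Iho1 (-1.90), and Zcwpw1 (-1.55). Spo11 was at 228 ± 39 CPM against 146 ± 46 (log2 0.54, edgeR adjusted p = 0.07283) and Gm960 at 82.7 ± 46.7 against 82.6 ± 59.9, and neither passed the test. Of 13 S phase genes 0 were higher and 10 lower (median -1.22), and of 5 cohesin genes 0 were higher and 4 lower, among them Smc3 at 432 ± 140 CPM against 1036 ± 77 (log2 -1.35).

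Of 9 synaptonemal complex genes 3 were higher than in those wells and 3 lower (median -0.06). Sycp1 (log2 0.57, SE 0.12, edgeR adjusted p = 0.0003697) and Sycp3 (0.64) were higher, and Syce1 was lower (-1.48). Of 17 strand exchange genes 2 were higher and 7 lower (median -0.70), with Meiob higher (1.15, at 479 ± 77 CPM against 205 ± 71). Of 14 pachytene markers 5 were higher and 0 lower (median 0.57). At 100 CPM or more in the higher group, the genes with the largest rises were A330049N07Rik, at 209 ± 139 CPM against 7.98 ± 7.41 (log2 4.58), the RNA-binding Celf4 (3.46), the chromatin reader Brd1 (3.0), 1700020N01Rik (2.89), Casd1 (2.66) and Phf3 (2.60). Those with the largest falls after Stra8 were the histone methyltransferase gene Suv420h2 (Kmt5c, -3.82), Rapgefl1 (-3.62), the inhibitor of the anaphase-promoting complex Fbxo5 (-3.54), Iqsec1 (-3.35) and the growth factor receptor gene Igf1r (-3.35). With autosomal totals in place of TMM factors 54.3% of the called genes were higher in members, against 42.5% as fitted.

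Against the Rad51ap2-high wells few genes differed: 87 of 6403 were higher in members (1.36%) and 192 lower (3.0%), 4.36% in either direction. These counts fell to 2 and 8 without the mouse as block, to 17 and 75 by DESeq2, and to 1 and 5 when each well was thinned to 3000 UMIs. Without mouse 1 they were 25 and 80, without mouse 2 47 and 95, and without mouse 3 33 and 75. Spo11 was at 228 ± 39 CPM in members against 96.8 ± 31.6 (log2 1.16, SE 0.25, edgeR adjusted p = 0.003328), and Smc1b at 1016 ± 107 against 635 ± 196 (log2 0.69). Dmc1 was at 583 ± 267 against 355 ± 82 (log2 0.69, edgeR adjusted p = 0.02022), with overlap between groups. Gnas, the stimulatory G protein, was at 140 ± 77 CPM in members and 799 ± 177 in those wells (log2 -2.52, SE 0.20, edgeR adjusted p = 7.763e-11), without overlap. At 100 CPM or more in the higher group, the other named falls were Npepl1 (-2.80), the zinc finger gene Zbtb32 (-2.30), the demethylase gene Phf2 (-1.93), the ceramide synthase Cers2 (-1.84) and Ptpmt1 (-1.74). The largest rises above that level were Pdss1 (1.57), Neto2 (1.55), Ppfibp1 (1.54), the condensin subunit Ncapg2 (1.51, at 192 ± 24 CPM against 63.6 ± 23.4), Glod4 (1.46, with overlap) and Adipor2 (1.45). Psma8, a meiotic proteasome subunit, was at 150 ± 91 CPM against 288 ± 14 (log2 -1.01), and Sycp1, Sycp3 and Meiob passed no test there.

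Against the Gml and Hemt1-high wells 1328 of 6402 genes were higher in members (20.7%) and 1559 lower (24.4%), 45.1% in either direction. Double-strand break genes were higher in 6 of 7 and lower in 0 (median 2.03), with Prdm9 at 131 ± 40 CPM against 16.2 ± 2.8 (log2 2.91, SE 0.33, edgeR adjusted p = 3.535e-09) and Mei1 at 41.8 ± 37.3 against 3.34 ± 0.76 (3.48). Of 12 pachytene markers 0 were higher and 9 lower (median -1.66), and of 14 piRNA genes 0 were higher and 11 lower (median -1.29). Piwil1 was at 244 ± 119 CPM against 970 ± 188 (log2 -2.21), and Psma8 at 150 ± 91 against 663 ± 40 (-2.27). Sycp1 was a little higher in members (log2 0.46, SE 0.12, edgeR adjusted p = 0.001293), while Meiob, at 479 ± 77 CPM against 416 ± 32, passed no test (0.07, edgeR adjusted p = 0.7181). At 100 CPM or more in the higher group, the largest rises were Pdlim5 (4.50), Ugt8a of galactolipid synthesis (4.43), Alcam (4.02), the histone methyltransferase gene Mll3 (Kmt2c, 3.70), Eml5 (3.50) and the kinase Prkd3 (3.32). The largest falls were C2cd4b (-4.08), Zbtb32 (-3.66, at 20.3 ± 17.4 CPM against 256 ± 40), Pou6f1 (-3.58), Mroh4 (-3.24), 1700029M20Rik (-3.23) and the ubiquitin ligase gene Trim11 (-3.10).

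Sex-linked RNA is described without tests, since X-linked genes chose the wells. Leaving out the 6 score genes, members had 3.77, 3.30 and 2.97 X UMIs per 100 autosomal UMIs in mice 1, 2 and 3, and all other kept wells 1.06, 1.10 and 0.755. The log2 difference was 1.80 ± 0.19 (SD, n = 3), or 0.68 ± 0.14 when the median well of each group was taken, since sums weight wells by their UMIs and medians do not. Against the other wells of 3000 to 10000 UMIs it was 0.64 ± 0.14. The Dmc1 and Eml5-high wells had shares of 3.16, 2.91 and 2.88, below members by 0.16 ± 0.11 on the log2 scale. The Rad51ap2-high wells had 1.86, 1.30 and 1.67 and the Gml and Hemt1-high wells 0.463, 0.314 and 0.303.

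Single wells showed how the X share was spread among members. Of 86 members 83 had at least 2 X UMIs per 100 autosomal UMIs and none had under 1, with a range from 1.40 to 5.14, and the 3 wells between 1 and 2 were all from mouse 3. All 67 Dmc1 and Eml5-high wells were at 2 or above. The Rad51ap2-high wells were mixed, with 25 of 54 at 2 or above and 17 under 1. Of the 82 Gml and Hemt1-high wells 79 were under 1 and 1 was at 2 or above. Among the 1142 other kept wells 588 were at 2 or above and 485 under 1.

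**Figure D5:**
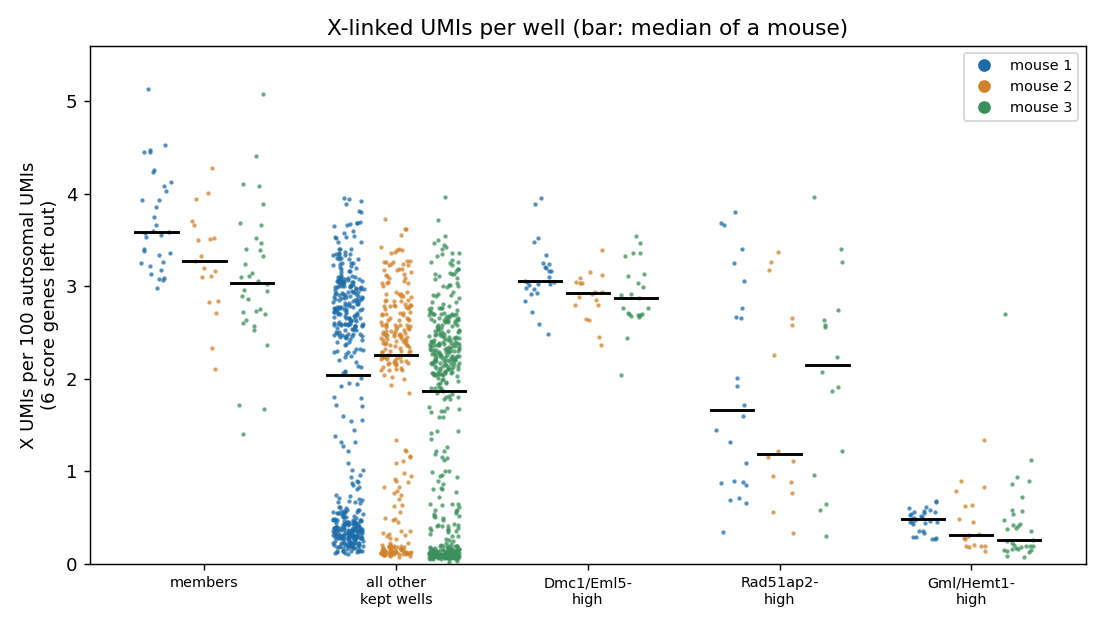
X UMIs per 100 autosomal UMIs in each kept well, without the 6 score genes, by group and mouse. Members lie between 1.40 and 5.14, while the Rad51ap2-high wells run from 0.306 to 3.97 and nearly all Gml and Hemt1-high wells are under 1.

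The high X share was spread over many genes. Of 407 X-linked genes with at least 100 UMIs over all kept wells, other than the score genes, 250 were higher in members in all 3 mice, 42 were lower in all 3 and 115 were mixed, with a median ratio of 2.81 to the others. These ratios are to sums weighted to RNA-rich wells, and 485 of the 1142 others had an X share under 1. By the median well the log2 difference in X share was 0.68. Among genes at 100 CPM or more in members, the largest ratios were for 1700080O16Rik, at 111 ± 12 CPM against 3.77 (29.4-fold), and Ube2a, a ubiquitin-conjugating enzyme, at 234 ± 34 against 9.85 (23.7-fold). AU022751 was at 337 CPM on average against 23.4, Nxf3, an mRNA export factor, at 138 against 9.71, Gm595 at 103 against 7.31, and Dynlt3, a dynein light chain, at 126 against 9.06. Fmr1, the RNA-binding protein gene beside Fmr1nb, was at 716 ± 44 CPM against 67.6 (10.6-fold), and Tex16, Txlng and Rpgr, the last a ciliary GTPase regulator, had ratios of 10.4, 10.3 and 10.3.

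These X-linked genes differed in how their level in the neighbouring sets compared with that in members. Fmr1, Tex16 and Txlng averaged 759, 360 and 202 CPM in the Dmc1 and Eml5-high wells and 716, 335 and 189 CPM in members. Dynlt3, Ube2a and 1700080O16Rik were low there, at 17.9, 32.1 and 5.53 CPM, and stood at 104.2, 140.2 and 41.1 in the Rad51ap2-high wells. Of the score genes, Nxt2 was at 13.9, 7.33 and 34.9 CPM in the Dmc1 and Eml5-high wells of mice 1, 2 and 3, and Fmr1nb at 417, 432 and 524 CPM. Wells high in the score were taken out of these sets as members, and the Rad51ap2-high wells mixed high and low X shares. Levels of score genes and of other X-linked genes there therefore show no course across stages. In the Gml and Hemt1-high wells Ccnb3 was at 1.39, 3.04 and 5.61 CPM, and Fmr1nb, the highest score gene there, at 128, 209 and 178.

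Y-linked RNA was also high in members, at 0.404, 0.213 and 0.155 UMIs per 100 autosomal UMIs against 0.0743, 0.0511 and 0.0372 in the others. Several Y-linked genes had counts almost only in mouse 1, so these shares cannot be compared between mice. Among them, Gm21677, Gm21708 and Rbmy were at 351.7, 287.5 and 272.2 CPM in members of mouse 1. They were at 0 in members and others of mice 2 and 3. Zfy2, a zinc finger gene of the Y, was at 492, 273 and 83.5 CPM in members against 12.6, 7.10 and 2.43, and its near-identical copy Zfy1 at 437, 176 and 63.3 against 14.0, 5.65 and 3.88, so the split between them is uncertain. Both were low in the Dmc1 and Eml5-high wells, at 10.1 and 18.9 CPM on average, and at 107.5 and 104.4 in the Rad51ap2-high wells. Both were highest in mouse 1 and lowest in mouse 3. Usp9y was at 300, 352 and 242 CPM, Eif2s3y at 370, 403 and 314 and Ddx3y at 220, 244 and 253. Ddx3y was at 136 CPM on average in the Dmc1 and Eml5-high wells, and its X-linked partner Ddx3x was at 169 in members and 16.7 in those wells.

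Over all kept wells, the autosomal genes whose level ran most closely with the score were Hspa5, Prss50, Dazl, Dmc1 and H2-K1. Their Spearman correlations with the score, averaged over the 3 mice and chosen as the highest of 11307 genes, were 0.717, 0.677, 0.646, 0.627 and 0.614. Wells in this ranking share libraries and depth, and the score itself went down with the UMIs of a well (rho -0.56, -0.44 and -0.39 in mice 1, 2 and 3 over kept wells, but 0.15, -0.08 and -0.15 within members). Hspa5, the chaperone BiP of the endoplasmic reticulum, was at 3771, 7510 and 6154 CPM in members and 689, 1377 and 843 in the others (log2 2.55, SE 0.11, edgeR adjusted p = 8.026e-25). It was higher in members in every mouse. Over the Dmc1 and Eml5-high wells it was higher by 0.53 (edgeR adjusted p = 0.0005955), while in the Rad51ap2-high wells it averaged 5998 CPM (log2 -0.10, edgeR adjusted p = 0.6984). H2-K1 and Prss50 were lower in members than in the Dmc1 and Eml5-high wells, by -0.71 and -0.68 on the log2 scale, and for Dazl the difference of -0.03 did not pass the test.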

How the data were processed

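SORT-Seq counts of 3 mice were used. All main values come from the UMI counts that the authors deposited. They also deposited read counts and a transcripts table that holds estimated counts and was rounded to whole numbers. BWA 0.7.10 and mm10 stand in the submitters' processing notes; annotation and counting tool are not given in the sources used here. With Python 3.11.15 and pandas 2.3.3, ERCC, mitochondrial, eGFP and Rn45s rows were left out and wells with at least 3000 UMIs kept; each well took a single sorted cell and no doublets were removed. Column names do not separate the libraries of mouse 1. Reads per UMI were 3.55, 4.21 and 3.54 in mice 1, 2 and 3. Members held 326950, 176029 and 347418 autosomal UMIs, and CPM is UMIs per 1000000 autosomal UMIs.

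UMIs were summed by mouse and group and tested with edgeR 4.0.16 in R 4.3.3 (filterByExpr, TMM factors, glmQLFit and glmQLFTest). That test gives no SE, so the SE printed is the absolute log2 difference divided by the square root of the F statistic. The Benjamini-Hochberg adjustment ran over the tested genes of all chromosomes, sex-linked genes included, and calls are given for autosomal genes. Groups came from the same animals, so the mouse was the replicate block. The code was tested on simulated data. DESeq2 1.42.0, other scalings, filters, score rules, well sets and count tables were alternatives. Named were the 15 genes with the largest rise and fall at an adjusted p under 0.05, with the same direction in 3 mice and at least 100 CPM in the higher group (6 each for a neighbouring set), 10 X-linked genes, members of the lists, and the 5 genes most like the score. The members and the lists were chosen with earlier results of these data known. Sorted wells of 1 mouse are not replicates. With the mouse as block, p-values weigh a group difference against its variation over the 3 mice, and not against differences in level between mice.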

Additional observations from a re-analysis of the deposited data

Results flagged for a closer look

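Wells under the limit of 3000 UMIs were not used in the comparisons. Of the 220 wells with 1000 to 3000 UMIs, 5 scored at or above the lowest member of their mouse, 2 in mouse 1, 1 in mouse 2 and 2 in mouse 3. Their counts are too few for the values given for members.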

How the results depend on the processing

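Against all other kept wells, 1871 genes were higher and 2905 lower. Scaled to ERCC UMIs this was 49 and 9718. Without the replicate block it was 1215 and 2033, against other wells of 3000 to 10000 UMIs 434 and 715, and with reads 1189 were higher. With each well thinned to 3000 UMIs, an alternative chosen after seeing the data, it was 600 and 991, of which 579 and 917 were also called in the full counts. Leaving out a mouse gave 1006 (without mouse 3) to 1732 higher and 2012 to 2550 lower. Against the Dmc1 and Eml5-high wells (847 and 1144), ERCC scaling gave 989 and 535, DESeq2 540 higher, no replicate block 535 and 652, thinning 263 and 306, and leaving out a mouse 548 to 643 and 795 to 881, with the lowest count of higher genes without mouse 2. Against the Rad51ap2-high wells (87 and 192), ERCC scaling gave 9 higher, DESeq2 17 and 75, no replicate block 2 and 8, thinning 1 and 5, and leaving out a mouse 25 to 47 and 75 to 95. Against the Gml and Hemt1-high wells (1328 and 1559), ERCC scaling gave 131 and 4439, no replicate block 664 and 823, thinning 418 and 444, and leaving out a mouse 884 (without mouse 1) to 1148 and 1135 to 1431. Higher genes were 39.2%, 42.5%, 31.2% and 46.0% of the calls in these 4 comparisons, and 0.502%, 64.9%, 5.88% and 2.87% with ERCC scaling. DESeq2 made it 18.5% and no low-count filter 43.8% against the Rad51ap2-high wells. The RNA difference of -1.18 was -0.90 with wells from 1000 UMIs and 0.29 against wells of 3000 to 10000 UMIs, a limit on UMIs that members did not have, and the X share difference of 1.80 was 0.64 against the latter. For named genes, 2128 of 2236 values under alternatives kept direction and call, 87 lost the call and 21 reversed. On the ERCC scale Atr became -0.95, Brca2 -0.60, Bub1 -0.02, Calr -0.06, Ccdc79 -0.35, Dazl -0.38, Hfm1 -0.46, Hormad1 -0.85, Mki67 -0.64, Smc1b -0.70, Smc3 -0.55, Sohlh2 -1.0, Spo11 -0.81, Sycp1 -0.07, Tnp2 -0.16, Topbp1 -0.96 and Zcwpw1 -0.38. Against wells of 3000 to 10000 UMIs Prdm9 became -0.02, Smc3 -0.19 and Zcwpw1 -0.01, and with reads Cldn11 became -0.24. Thinning leaves fewer genes tested (6941 against all others, 2708 or 2709 against the sets). ERCC scaling uses the summed ERCC UMIs of each group and mouse in place of autosomal totals with TMM factors. It moved the median of all genes from -0.21 to -1.94 against all others, and from 0.01 to 0.25 against the Dmc1 and Eml5-high wells. These moves are not the differences in RNA content of the median well, which were -1.18 and 0.01. For the other changes the cause was not tested. The score on wells thinned to 3000 UMIs kept 62 of the 86 members. Over all members 3 counts are 3.53 CPM, and levels near or under this, as of Ccnd1, Zbtb16 and Rec8, are not resolved.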

Other observations

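Hspa5 led the genes that ran with the score, so other chaperone genes of the endoplasmic reticulum were read after its value was seen. Against all other kept wells, Calr was at 2395 ± 395 CPM in members (SD, n = 3 mice) and 753 ± 138 in the others (log2 1.63, or -0.06 on the ERCC scale), P4hb at 643 ± 124 against 214 ± 44 (1.55), Pdia6 at 1186 ± 113 against 479 ± 56 (1.27), and Hsp90b1 at 1748 ± 310 against 869 ± 162 (0.97). Pdia4 differed by 1.80 and Canx by 0.39. Neighbouring wells shared part of this. Against the Rad51ap2-high and the Gml and Hemt1-high wells Calr differed by -0.20 and -0.13 and Pdia6 by -0.22 and -0.12. Hsp90b1 differed there by -0.05 and -0.12, and none of these had a call. Over the Dmc1 and Eml5-high wells Calr (0.95) and Pdia6 (0.90) were called higher, while Hsp90b1 (0.05) had no call. P4hb (0.90) and Pdia4 (1.24) were called higher than in the Gml and Hemt1-high wells, and Canx (-0.35) lower. P4hb, Pdia4 and Canx had no call against the other sets. Pdia3 (0.28, edgeR adjusted p = 0.1796) and Sdf2l1 (-0.05, edgeR adjusted p = 0.8905) did not pass the test against all other kept wells. B2m, the light chain of class I histocompatibility molecules, was also without a call (0.73, edgeR adjusted p = 0.05997), where H2-K1 and H2-D1 were called.

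Over all autosomal genes 17.1% were higher in members and 26.6% lower (median -0.21), which are the shares to set beside the lists that follow. Of 74 ribosomal protein genes 16 were higher in members than in all others and 31 lower (median -0.24), and of 12 genes of the RNA polymerase II core 3 were higher and 4 lower. Of 14 apoptosis regulators 0 were higher and 2 lower, and of 20 autosomal cyclins 4 were higher and 6 lower. Ccnd1, a cyclin of the G1 phase, had 1 UMI in members, under the limit of 3.53 CPM, against 64.4 ± 28.1 CPM in the others. Of 7 immediate early and stress genes tested Egr1 alone was higher, at 64.0 ± 18.8 CPM against 17.3 ± 7.9 (log2 1.96, SE 0.35, edgeR adjusted p = 5.407e-06), and 2 were lower. Of 9 BET readers and H3K9 methyltransferases 1 was higher and 2 lower.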
